A study of Mus musculus with 12 samples.

Results

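The genes described here carry cells from G2 into mitosis and through division, and were followed in CTLL-2, a line of mouse cytotoxic T cells whose growth and survival require the cytokine interleukin 2 (IL-2). The set is a list of 44 genes, and every probe set of the Affymetrix Mouse Genome 430 2.0 array that the platform's table gives to a listed symbol was used. The table named 98 probe sets for 43 of the 44 genes, out of 45037 probe sets that are not controls, and Ccnb1 was not analysed here. Of those 43 genes, 42 were bright enough to be tested among 12754 genes. Kif15, a spindle kinesin, stayed below the brightness limit, with signals of 55.2, 15.2 and 30.4 in the IL-2 arrays, 3.50, 53.5, 10.5 and 26.3 in the 4.5 h arrays, and 10.9, 47.7, 62.2 and 46.7 in the 30 min arrays.

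All groups were starved of IL-2 for 14 h after growth in 50 U/mL of it, and all then received 20 µg/mL cycloheximide, which blocks translation. The IL-2 group had 30 min of cycloheximide and then 4 h of 100 U/mL recombinant human IL-2. The 4.5 h group had cycloheximide alone for the same total time, and the 30 min group had cycloheximide alone up to the moment at which IL-2 would have been added. The labels assign 4 arrays to each group. The comparison at matched time asks what IL-2 did, the comparison of 4.5 h with 30 min asks what longer cycloheximide did, and the comparison of IL-2 with 30 min spans both.

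As background, entry into mitosis is driven by the kinase Cdk1 bound to A- and B-type cyclins, and exit by the anaphase-promoting complex (APC/C), a ubiquitin ligase that destroys those cyclins. Transcripts of this group are kept low in resting cells and in G1 by the DREAM repressor complex, and are raised in S and G2 by B-Myb and FoxM1, through promoter elements that include the CHR (cell cycle genes homology region) and the CCAAT box bound by NF-Y. In T cells IL-2 drives the passage from G1 into the cell cycle.

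Some arrays need mention first. The array labelled IL-2 replicate 3 did not carry T cell transcripts: all 9 T cell markers measured lay between 4.80 and 109 on it. Gzmb, a granule protease, read 34212 to 73573 on the other 11 arrays and 4.80 on this one. Il2ra, the dimmest marker on the others apart from Cd2, read 1191.7 to 6296.5 on them and 38.2 here. Cd2 was the exception, dim throughout, with 3.10 to 14.7 on the other 11 arrays and 35.5 on this one. IL-2 replicate 3 was left out of all values below unless stated, so the IL-2 group has 3 arrays. The 4.5 h group's 4 arrays shared a scan day with no other array, so in each comparison with that group scan day and treatment cannot be told apart. The IL-2 arrays and 3 of the 30 min arrays shared another day. Actb probe sets at the 3′ end exceeded those at the 5′ end by 0.25 ± 0.03 in log2 units in the IL-2 arrays (SD, n = 3), 0.56 ± 0.17 in the 4.5 h arrays and 0.29 ± 0.04 in the 30 min arrays (n = 4 each). The summed signal of 4 B cell markers, all dim, was 47.5 to 126 with IL-2, 149.7 to 328 at 4.5 h and 148 to 236 at 30 min. The part of either measure in the results was not tested. In bulk RNA a smaller number of cells in G2 or mitosis and less RNA per such cell cannot be told apart.

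With IL-2, 19 of the 42 transcripts were lower than in cells kept in cycloheximide alone for the same time, 0 were called higher and 23 did not pass. A gene was called at a Benjamini-Hochberg adjusted p under 0.05 in limma with at least a 2-fold difference, on the scale log2(signal + 16). The counts of 19 lower and 0 higher stand against 5.94% lower and 5.04% higher of all genes tested. At an unadjusted limma p under 0.05, 30 were lower and 0 higher, counts for which the share of all genes was not computed. The median difference was −0.98 for the group and −0.07 for all genes, and 39 of 42 differences were below 0. The 3 IL-2 arrays all lay below the 4 arrays of the 4.5 h group for 26 of 42 genes, against 24.9% of all genes. They all lay above for 1 gene, Bub1b, against 20.7% of all genes. With all 12 arrays the count of lower genes was 11, of which 10 were among the 19. When each array was centred on 98 ribosomal protein probe sets in place of the authors' scaling, the median of all genes moved to 0.60, the group's median became −0.30, and 8 genes were called lower and 1, Bub1b, higher. The share of higher genes among all calls was then 95%, against 45.9% with the authors' scaling.

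**Figure D1:**
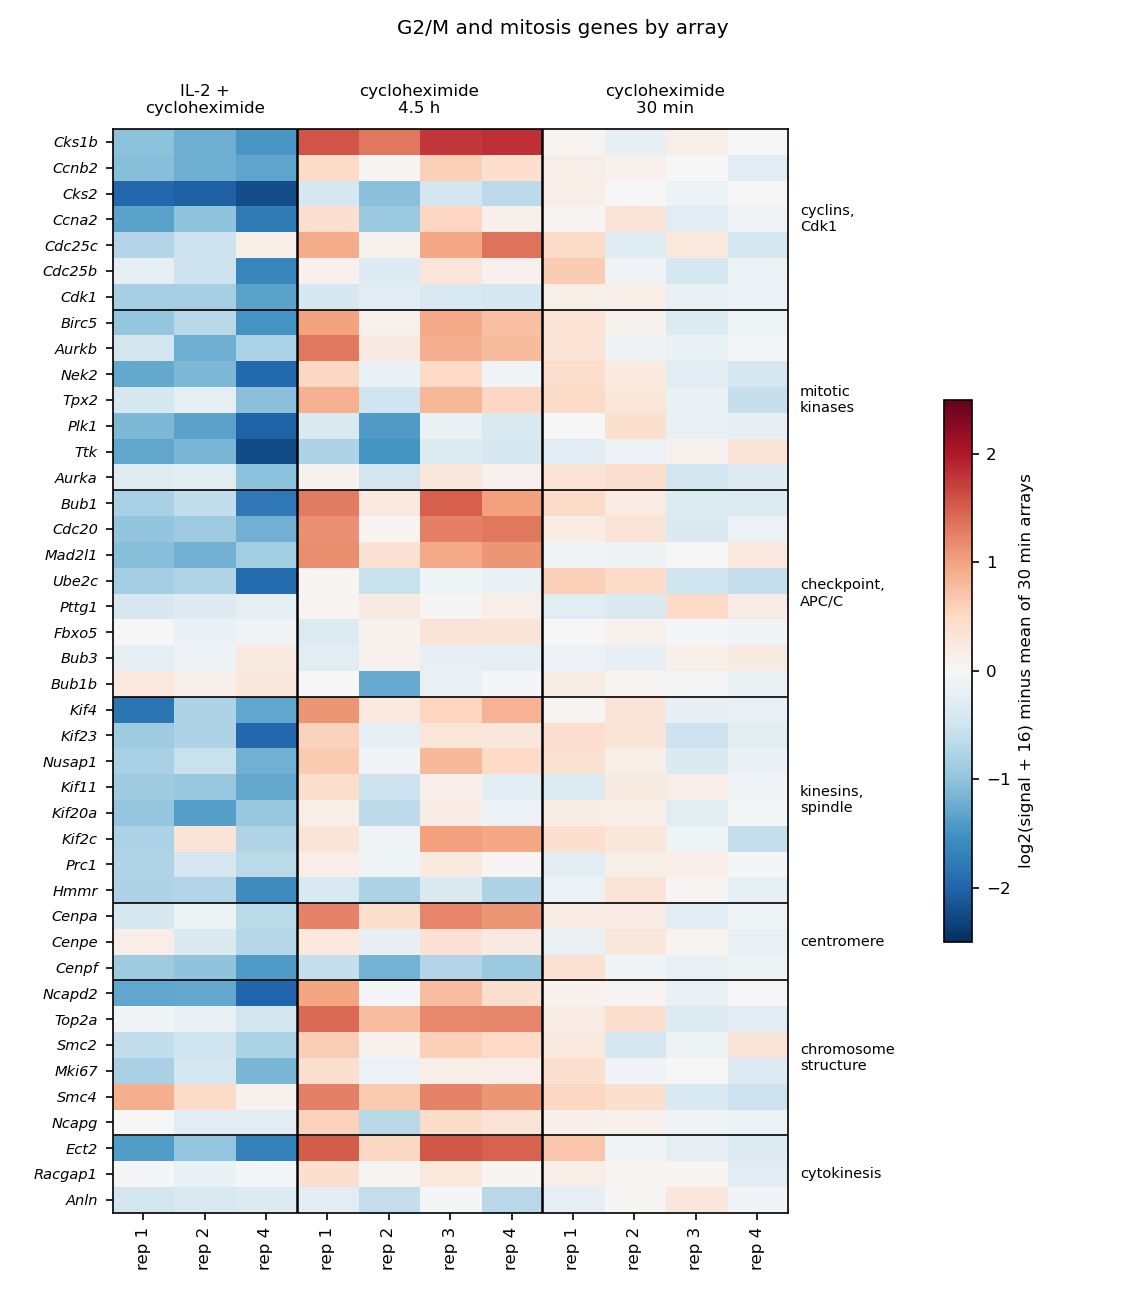
Level of 42 G2/M and mitosis genes (rows, grouped by role) on 11 arrays (columns), coloured by log2(signal + 16) minus the mean of the 30 min arrays, red for higher and blue for lower. The 3 IL-2 columns are blue for most genes, and replicate 2 of the 4.5 h group is paler or bluer than the other 3 columns of its group.

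The promoters of the 4 genes with the largest differences are shown because their transcripts differed the most between IL-2 and 4.5 h, and the elements named above can be read in them. The RefSeq promoter table (GRCm38.p6) had windows from 250 bases before to 50 after the annotated start for 38 of the 44 genes. Each window was searched on both strands for the CHR letters TTTGAA and for the letters CCAAT, which can share at most 1 letter where they meet. In the lines below, capitals mark these letters or their reverse complements, and each sequence runs 5′ to 3′ on the gene's strand.
Cks1b, chr3:89418242-89418541, minus strand: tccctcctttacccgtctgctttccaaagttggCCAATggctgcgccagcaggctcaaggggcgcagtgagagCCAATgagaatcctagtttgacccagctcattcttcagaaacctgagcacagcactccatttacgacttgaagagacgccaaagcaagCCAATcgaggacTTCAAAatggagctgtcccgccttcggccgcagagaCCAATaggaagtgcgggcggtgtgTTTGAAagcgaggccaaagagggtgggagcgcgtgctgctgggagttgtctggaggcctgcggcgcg
Ect2, chr3:27153805-27154104, minus strand: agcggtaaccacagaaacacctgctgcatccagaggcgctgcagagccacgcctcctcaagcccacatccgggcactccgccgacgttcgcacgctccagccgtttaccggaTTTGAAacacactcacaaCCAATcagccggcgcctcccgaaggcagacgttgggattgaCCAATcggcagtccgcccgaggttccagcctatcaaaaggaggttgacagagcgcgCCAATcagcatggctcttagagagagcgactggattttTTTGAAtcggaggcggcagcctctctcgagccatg
Bub1, chr2:127831810-127832109, minus strand: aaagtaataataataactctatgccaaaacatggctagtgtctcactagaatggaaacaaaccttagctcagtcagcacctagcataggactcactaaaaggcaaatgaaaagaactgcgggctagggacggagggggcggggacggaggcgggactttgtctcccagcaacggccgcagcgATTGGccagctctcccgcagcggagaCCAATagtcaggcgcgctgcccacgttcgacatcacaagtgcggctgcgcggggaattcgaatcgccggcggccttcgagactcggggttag
Ncapd2, chr6:125191537-125191836, minus strand: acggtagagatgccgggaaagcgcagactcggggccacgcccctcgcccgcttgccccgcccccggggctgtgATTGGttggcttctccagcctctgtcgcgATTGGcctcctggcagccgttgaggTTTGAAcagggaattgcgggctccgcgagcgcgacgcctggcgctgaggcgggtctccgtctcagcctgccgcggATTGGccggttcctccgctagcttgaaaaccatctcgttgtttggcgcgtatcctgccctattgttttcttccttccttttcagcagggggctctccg
Counted from the start site as 0, the Cks1b window held CHR letters beginning at −77, on the reverse strand, and at −17, among 4 CCAAT matches. The Ect2 window held CHR letters at −138 and 15 with 3 CCAAT matches between them. The Ncapd2 window held 1 CHR match at −123 and 3 CCAAT matches. The Bub1 window held CCAAT matches at −68 and −42 and none of the CHR letters. In the whole set, 28 of 38 genes (73.7%) had the CHR letters in a window, against 20.2% of 27025 genes in the table. CCAAT was found for 31 of 38 (81.6%), against 41.1% of all genes, and both together for 25 of 38 (65.8%), against 7.97%. Within the set the CHR letters were in 10 of 16 genes (62.5%) called lower with IL-2 and in 17 of 20 (85.0%) of those not called. A match is a description of letters and not a bound site.

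**Figure D2:**
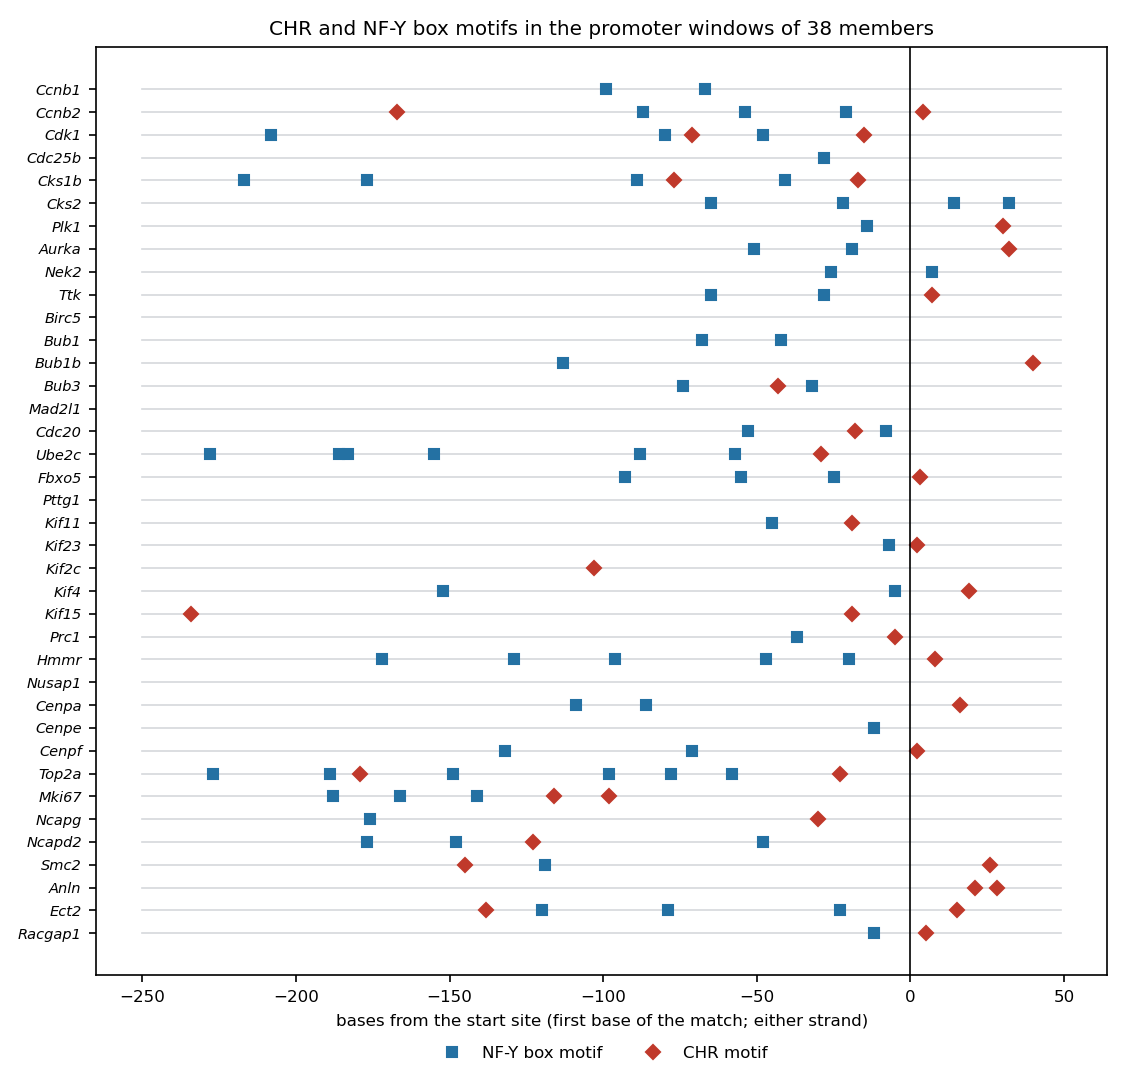
Position of the CHR letters (diamonds) and of the CCAAT letters, the NF-Y box (squares), in the promoter window of 38 genes (rows, the first RefSeq window of each gene), with the horizontal axis in bases from the annotated start site. Most matches lie within 100 bases of the start, and 4 rows (Birc5, Mad2l1, Pttg1 and Nusap1) are empty.

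Among the cyclins, Cdk1 and their partners, 5 of 7 tested genes were lower with IL-2 than at 4.5 h. Cks1b, a small subunit that binds Cdk kinases and is also needed by the ubiquitin ligase that degrades p27, had the largest difference of the set. Its signal was 1313, 1158 and 972 in the IL-2 arrays, against 8049.9, 6756, 9292 and 9685 in the 4.5 h arrays. No array of one group approached the other, and the difference was −2.86 ± 0.17 (SE, adjusted p = 1.03e-05), which is 7.25-fold lower. This probe set is of a type that can match more than 1 transcript, and the other one for Cks1b gave −2.05 ± 0.20 (adjusted p = 1.08e-04), or 4.14-fold lower. At 30 min Cks1b read 2835, 2333, 2998 and 2704, so the 4.5 h arrays were also all above the 30 min arrays, by 1.62 ± 0.16 (adjusted p = 9.07e-05), where the other probe set gave 0.99 ± 0.19 (adjusted p = 0.00283, just under 2-fold). The IL-2 arrays were all below the 30 min arrays, by a difference of −1.24 ± 0.17 (adjusted p = 6.47e-04).

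Cks2, the close relative of Cks1b, was also lower with IL-2 but had another course in cycloheximide alone. By the brighter of its 2 tested probe sets, it read 957, 896 and 798 in the IL-2 arrays, 2794, 1801, 2721 and 2366 in the 4.5 h arrays, and 4226, 3709, 3418 and 3707 in the 30 min arrays. The groups did not overlap and stood in that order, the IL-2 arrays lowest. The difference was −1.42 ± 0.17 for IL-2 against 4.5 h (adjusted p = 3.28e-04) and −2.07 ± 0.17 for IL-2 against 30 min (adjusted p = 3.28e-05), the lowest value of the set in that comparison. Between 4.5 h and 30 min it was −0.65 ± 0.16 (adjusted p = 0.011), under the 2-fold limit, while Cks1b differed in the other direction. That probe set of Cks2 is of the type that can match more than 1 transcript. The other one gave −2.04 ± 0.15 for IL-2 against 4.5 h (adjusted p = 3.03e-05) and −2.13 ± 0.15 for IL-2 against 30 min (adjusted p = 1.42e-05). Between 4.5 h and 30 min it gave −0.09 ± 0.14 (adjusted p = 0.666), and the arrays of these groups overlapped.

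Ccnb2, cyclin B2, a mitotic partner of Cdk1, read 642, 574 and 534 with IL-2, against 1899, 1399, 2064 and 1833 at 4.5 h, a difference of −1.59 ± 0.17 (adjusted p = 1.72e-04). Ccna2, cyclin A2, which acts in S phase and G2, read 374, 473 and 272 with IL-2, against 1294, 500.4, 1411 and 1060.0 at 4.5 h. Its lowest 4.5 h array, replicate 2, was only just above the highest IL-2 array, and the difference was −1.41 ± 0.34 (adjusted p = 0.0107). Cdc25c, a phosphatase that removes the inhibitory phosphates from Cdk1, read 28.6, 35.7 and 66.8 with IL-2, against 126, 62.9, 129.9 and 174 at 4.5 h, and here the groups overlapped. It was called at −1.21 ± 0.34 (adjusted p = 0.0232), and it lost the call in 10 of 22 alternative settings, more than any other gene called in this comparison.

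Cdk1 itself was lower by less. Its signal was 429, 429 and 295 in the IL-2 arrays, 583, 637, 592 and 569.5 in the 4.5 h arrays, and 866, 872, 685 and 703 in the 30 min arrays. These groups did not overlap, and the differences were −0.63 ± 0.17 for IL-2 against 4.5 h (adjusted p = 0.0181, under 2-fold), −0.38 ± 0.15 for 4.5 h against 30 min (adjusted p = 0.0911) and −1.0 ± 0.17 for IL-2 against 30 min (adjusted p = 0.00173, just past 2-fold, and lost in 7 of 26 alternative settings). Cdc25b, another activating phosphatase, passed in no comparison, with differences of −0.85 ± 0.34, 0.05 ± 0.32 and −0.80 ± 0.34 in the same order.

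**Figure D3:**
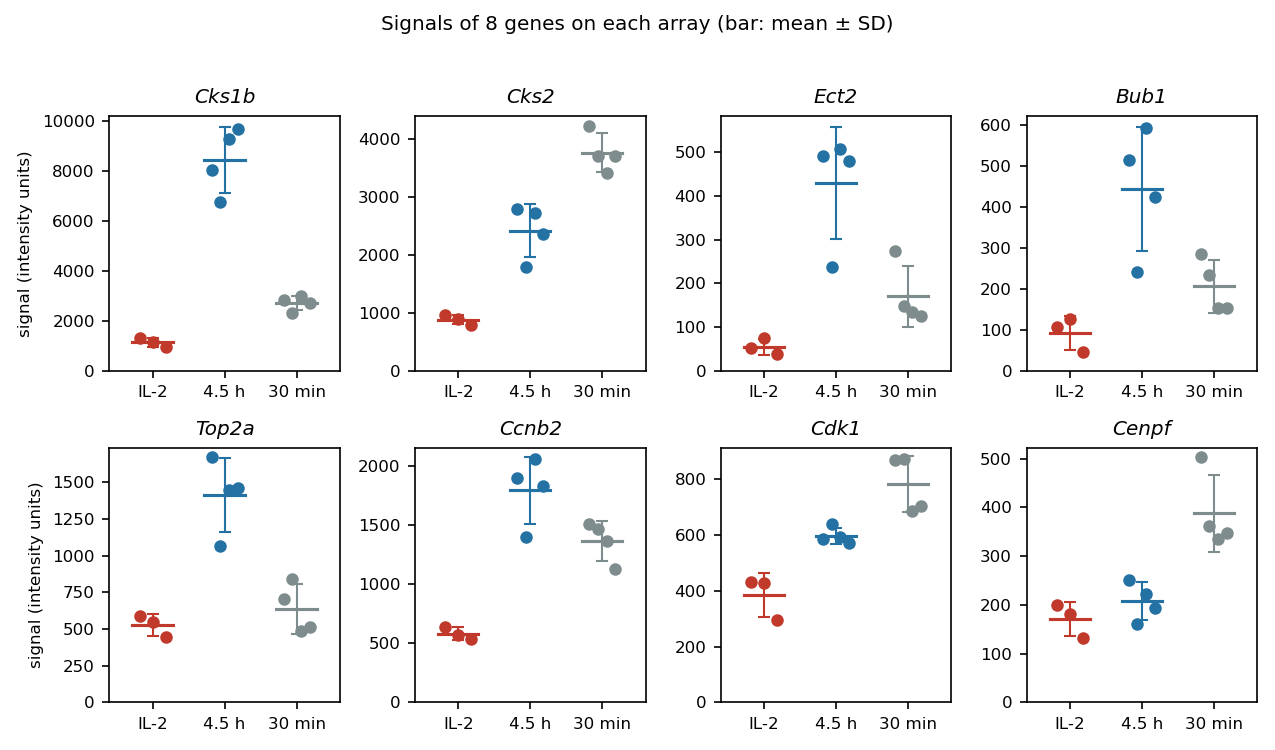
Signal in intensity units on each of 11 arrays (points) for 8 genes, with the mean (horizontal bar) and SD (error bar) of the IL-2 group (n = 3), the 4.5 h group and the 30 min group (n = 4 each). Each gene is shown by its brightest probe set. By these, Cks1b, Ect2, Bub1 and Top2a are highest at 4.5 h, whereas Cks2, Cdk1 and Cenpf are highest at 30 min.

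Of the mitotic kinases and their activators, 3 of 7 were lower with IL-2 at matched time, and these were Birc5, Aurkb and Nek2. Birc5, or survivin, and the kinase Aurkb belong to the chromosomal passenger complex, which corrects faulty attachments to the spindle. Birc5 read 1070.5, 1309.8 and 741 with IL-2, against 4265, 2285, 4108 and 3568 at 4.5 h (difference −1.75 ± 0.27, adjusted p = 0.00108). Aurkb read 119, 63.9 and 90.8 with IL-2, against 448, 200.3, 333 and 304 at 4.5 h (difference −1.64 ± 0.27, adjusted p = 0.0015). Nek2, a centrosome kinase, read 104, 117 and 59.3 with IL-2, against 394, 241, 389 and 254 at 4.5 h (difference −1.63 ± 0.29, adjusted p = 0.0023). In all 3 genes the arrays of the groups were apart.

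Plk1, a kinase with roles from mitotic entry to cytokinesis, and Ttk, the checkpoint kinase also called Mps1, passed only in the comparison of IL-2 with 30 min. Plk1 read 219, 188 and 110.0 with IL-2, 386, 176, 441 and 376 at 4.5 h, and 497, 661, 433 and 430.2 at 30 min. Replicate 2 of the 4.5 h group lay inside the range of the IL-2 arrays, and the difference from 4.5 h was −0.91 ± 0.32 (adjusted p = 0.0555), while that from 30 min was −1.50 ± 0.32 (adjusted p = 0.0067). Without that replicate Plk1 was lower with IL-2 than at 4.5 h by −1.19 (adjusted p = 0.00847). Ttk read 257, 289.9 and 126 with IL-2, 375, 223, 520.3 and 494 at 4.5 h, and 536, 590.0, 711 and 824 at 30 min. Its difference was −0.81 ± 0.33 against 4.5 h (adjusted p = 0.0952), −1.06 without replicate 2 of that group (adjusted p = 0.0281), and −1.56 ± 0.33 against 30 min (adjusted p = 0.0066). Aurka, the spindle pole kinase, and Tpx2, its activator, were called in no comparison. Tpx2 was 2.01-fold lower with IL-2 than at 4.5 h with an adjusted p of 0.0657, and Aurka differed by −0.54 ± 0.29 (adjusted p = 0.2).

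The spindle checkpoint and APC/C genes ran from −2.08 to 0.59 for IL-2 against 4.5 h. Of their 8 genes, 3 (Bub1, Cdc20 and Mad2l1) were lower with IL-2 at matched time. Bub1, a checkpoint kinase at the kinetochore, read 107, 126 and 46.6 with IL-2, 514, 240.1, 591 and 424 at 4.5 h, and 284, 233, 154 and 154 at 30 min. It differed by −2.08 ± 0.36 between IL-2 and 4.5 h (adjusted p = 0.00222), by 1.02 ± 0.34 between 4.5 h and 30 min (adjusted p = 0.0409) and by −1.07 ± 0.36 between IL-2 and 30 min (adjusted p = 0.0572, not called). The call of 4.5 h against 30 min rested on a narrow margin, with replicate 2 of the 4.5 h group inside the range of the 30 min arrays, and it was lost in 15 of 24 alternative settings. Cdc20, the APC/C activator that the checkpoint restrains, read 511, 548 and 436 with IL-2, against 2291, 1057, 2469 and 2593 at 4.5 h (difference −1.97 ± 0.30, adjusted p = 0.00108). Against 30 min Cdc20 was called at −1.03 ± 0.30 (adjusted p = 0.031), but that call was lost in 13 of 26 alternative settings. The smallest difference, −0.11, came with all 12 arrays, which adds the left-out IL-2 replicate 3, where Cdc20 read 6557. Mad2l1, the checkpoint protein Mad2 that holds Cdc20, read 727, 657 and 832 with IL-2, against 3452, 1963, 2962 and 3294 at 4.5 h (difference −1.93 ± 0.21, adjusted p = 1.63e-04).

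Bub1b, which encodes BubR1 of the same inhibitory complex, was the gene whose IL-2 arrays all lay above the 4.5 h arrays by its brightest probe set. It read 682, 616 and 688 with IL-2, 562, 227, 494 and 552 at 4.5 h, and 644, 586, 546 and 496 at 30 min. It was not called, with a difference of 0.59 ± 0.27 between IL-2 and 4.5 h (adjusted p = 0.136). With ribosomal protein centring that difference was 1.27 (adjusted p = 0.0169), in a setting that called 24.5% of all genes higher. The 3 tested probe sets of Bub1b differed in sign. They ran from −0.27 to 0.59 for IL-2 against 4.5 h and from −0.84 to 0.22 for IL-2 against 30 min. Bub3, the binding partner of Bub1 and BubR1, differed by 0.10 ± 0.17, −0.15 ± 0.16 and −0.05 ± 0.17 for IL-2 against 4.5 h, 4.5 h against 30 min and IL-2 against 30 min. Fbxo5, the APC/C inhibitor Emi1, differed by −0.18 ± 0.17, 0.09 ± 0.16 and −0.09 ± 0.17, and Pttg1, the securin that holds separase inactive, by −0.44 ± 0.20, 0.12 ± 0.19 and −0.32 ± 0.20. None of these passed the test. Ube2c, the ubiquitin-conjugating enzyme of the APC/C, read 1638, 1755 and 770.4 with IL-2, against 4481, 4098, 2099 and 1976 at 30 min, and was called lower (difference −1.17 ± 0.36, adjusted p = 0.0399), a call lost in 14 of 26 alternative settings.

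Of the kinesins and other proteins of spindle microtubules, 3 of 8 tested genes were lower with IL-2 than at 4.5 h and 5 of 8 were lower than at 30 min. Kif4, a chromosome-bound motor, read 44.3, 109 and 71.3 with IL-2, against 448, 237, 296 and 379 at 4.5 h (difference −2.0 ± 0.28, adjusted p = 6.53e-04). Kif23, a motor of the central spindle, read 198, 216 and 85.5 with IL-2, against 571, 318, 469 and 462 at 4.5 h (difference −1.43 ± 0.34, adjusted p = 0.0101). Its call against 30 min (−1.20 ± 0.34, adjusted p = 0.0249) was lost in 10 of 26 alternative settings, among them scan day as a block and the arrays of the shared day alone. Nusap1, which bundles spindle microtubules, read 270.4, 325 and 202 with IL-2, against 778, 461, 861 and 699 at 4.5 h (difference −1.33 ± 0.26, adjusted p = 0.00366). For all 3 genes every IL-2 array lay below every 4.5 h array.

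Kif11, the motor that separates the spindle poles, and Kif20a, a motor of cytokinesis, fell just short of 2-fold against 4.5 h. Their differences were −0.98 ± 0.24 (adjusted p = 0.0122) and −0.97 ± 0.22 (adjusted p = 0.00916), and against 30 min they were called at −1.04 ± 0.24 (adjusted p = 0.0101) and −1.09 ± 0.22 (adjusted p = 0.00547), calls lost in 9 of 26 and 5 of 25 alternative settings. Hmmr, a spindle-associated receptor for hyaluronan, read 157, 161 and 84.2 with IL-2, 210.1, 154, 213 and 156 at 4.5 h, and 248, 356, 283 and 236 at 30 min. Its IL-2 and 4.5 h arrays overlapped, and only the difference of IL-2 from 30 min was called (−1.01 ± 0.23, adjusted p = 0.0102). That call was lost in 10 of 26 alternative settings, among them scan day as a block, the arrays of the shared day alone and the replicate block. Prc1, a crosslinker of the central spindle, was lower with IL-2 by less than 2-fold in both comparisons, at −0.70 ± 0.16 against 4.5 h (adjusted p = 0.00844) and −0.62 ± 0.16 against 30 min (adjusted p = 0.0168). Kif2c, a microtubule depolymerase, was called in no comparison.

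Of the 3 centromere genes, Cenpa was called against 4.5 h, Cenpf against 30 min and Cenpe in no comparison. Cenpa, the histone H3 variant that marks centromeres, read 1077, 1302 and 884 with IL-2, 3371, 1913, 3335 and 3078 at 4.5 h, and 1614, 1626, 1173 and 1319 at 30 min. It was called lower with IL-2 than at 4.5 h (−1.40 ± 0.23, adjusted p = 0.00168). The 4.5 h arrays were all above the 30 min arrays, by 1.0 ± 0.21 (adjusted p = 0.00534), a difference just under the 2-fold limit. Cenpf, a kinetochore protein that accumulates in G2, read 199, 181 and 133 with IL-2, 252, 161, 222 and 195 at 4.5 h, and 504, 363, 336 and 347 at 30 min. By this brightest probe set the 30 min arrays stood above both other groups, which overlapped. The difference was −0.25 ± 0.21 for IL-2 against 4.5 h (adjusted p = 0.399), −0.85 ± 0.19 for 4.5 h against 30 min (adjusted p = 0.00668, under 2-fold) and −1.11 ± 0.21 for IL-2 against 30 min (adjusted p = 0.00318). The 3 tested probe sets of Cenpf differed in sign, from −1.09 to 0.70 for IL-2 against 4.5 h and from −0.99 to 0.53 for 4.5 h against 30 min. For IL-2 against 30 min they ran from −1.11 to −0.29, and 1 was called. That call was lost in 6 of 26 alternative settings, among them the mean over probe sets. Cenpe, a kinetochore motor, gave differences of −0.46 ± 0.23, 0.16 ± 0.21 and −0.30 ± 0.23.

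Among genes of chromosome structure, 3 of 6 were lower with IL-2 at matched time and 2 were higher at 4.5 h than at 30 min. Ncapd2, a subunit of condensin I, read 189, 193 and 112 with IL-2, 978, 478, 841 and 658 at 4.5 h, and 522, 511, 436 and 492 at 30 min. It was lower with IL-2 than at 4.5 h (−2.05 ± 0.25, adjusted p = 3.46e-04) and than at 30 min (−1.51 ± 0.25, adjusted p = 0.00171). The other tested probe set of Ncapd2 gave −0.61 ± 0.30 (adjusted p = 0.162) and −0.41 ± 0.30 (adjusted p = 0.374), called in neither, and the call against 30 min was lost with the mean over probe sets. Top2a, the topoisomerase that untangles sister chromatids, read 592, 547 and 448 with IL-2, 1674, 1068, 1448 and 1461 at 4.5 h, and 705, 843, 487 and 512 at 30 min. Its 4.5 h arrays stood above both other groups, by a difference of −1.38 ± 0.23 for IL-2 against 4.5 h (adjusted p = 0.00156) and 1.15 ± 0.21 for 4.5 h against 30 min (adjusted p = 0.00221), and the IL-2 and 30 min arrays overlapped. These values come from a probe set that can match more than 1 transcript. The other tested probe set of Top2a gave −0.24 ± 0.50 (adjusted p = 0.769) and 0.40 ± 0.47 (adjusted p = 0.563), and both calls were lost without such probe sets and with the mean over probe sets.

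Smc2, the ATPase core of both condensins, was lower with IL-2 than at 4.5 h by −1.08 ± 0.21 (adjusted p = 0.00398). Its partner Smc4 read 4006, 2968 and 2267 with IL-2, 5165, 3357, 5078 and 4636 at 4.5 h, and 3081, 2822, 1633 and 1467 at 30 min. By its brightest probe set, only the difference of 4.5 h from 30 min was called for Smc4 (1.07 ± 0.28, adjusted p = 0.015). IL-2 against 4.5 h gave −0.58 ± 0.30 (adjusted p = 0.183) by that probe set. Of its 3 tested probe sets, 1 was called lower with IL-2 than at 4.5 h, at −1.07, and 2 were called higher at 4.5 h than at 30 min. Mki67, the proliferation antigen Ki-67 that coats mitotic chromosomes, was lower with IL-2 by less than 2-fold, at −0.94 ± 0.23 against 4.5 h (adjusted p = 0.0112) and −0.79 ± 0.23 against 30 min (adjusted p = 0.0276). Ncapg, another condensin I subunit, differed by −0.34 ± 0.27, 0.17 ± 0.25 and −0.17 ± 0.27 and was called in no comparison.

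Of the 3 cytokinesis genes, Ect2 had the second largest difference of the set, and the remaining pair was called in no comparison. Ect2, the exchange factor that switches on RhoA at the cleavage furrow, read 51.9, 75.0 and 39.3 with IL-2, 492, 238, 507 and 480.0 at 4.5 h, and 273, 149, 134 and 125 at 30 min. The IL-2 arrays were below all others, and the difference was −2.61 ± 0.32 against 4.5 h (adjusted p = 3.58e-04), which is 6.12-fold lower, and −1.35 ± 0.32 against 30 min (adjusted p = 0.0122). The 4.5 h arrays were higher than the 30 min arrays by 1.26 ± 0.30 (adjusted p = 0.0091), although replicate 2 of the 4.5 h group lay below the highest 30 min array. Racgap1, which works with Kif23 and recruits Ect2, read 964, 875 and 969 with IL-2, against 1315, 1029, 1188 and 1026 at 4.5 h, a difference of −0.27 ± 0.15 (adjusted p = 0.218). Anln, the furrow scaffold anillin, differed by 0.01 ± 0.19 (adjusted p = 0.98).

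Few of these transcripts were called as different with longer cycloheximide alone. Between 4.5 h and 30 min, 5 of 42 genes were called higher (Cks1b, Ect2, Bub1, Top2a and Smc4) and 0 lower, against 7.22% higher and 4.75% lower of all genes tested, so the count of higher genes is not far from the background. At an unadjusted limma p under 0.05, 15 were higher and 6 lower. The share of all genes at that limit was not computed, so these 2 counts cannot be set against a background. The median difference was 0.18 for the set and 0.08 for all genes. Without the 2-fold limit 9 were higher, adding Aurkb, Mad2l1, Cdc20 and Cenpa. This stands against 20% of all genes, so that count is near the background share. Lower without the limit were 2, Cks2 and Cenpf, against 13.7% of all genes. The direction depended on the scaling: with ribosomal protein centring the median was −0.11 for the set and −0.21 for all genes, and 1 gene was called in each direction (Cks1b higher, Cenpf lower). The share of higher genes among all calls was then 24.7%, against 60.3%. Replicate 2 of the 4.5 h group weighed on the count, which was 10 without it, and it was 3 without replicate 3 or replicate 4 of the 30 min group.

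Against the 30 min arrays, 20 of 42 genes were lower with IL-2 and 0 were higher, against 4.46% lower and 6.94% higher of all genes. At an unadjusted limma p under 0.05, 27 were lower and 0 higher, again without a computed share of all genes. The median difference was −0.93 for the set and −0.03 for all genes. For 27 of 42 genes all IL-2 arrays lay below all 30 min arrays, against 17.6% of all genes, and for 0 they all lay above, against 18.9%. Of these 20 genes 12 were also lower against 4.5 h, while 8 (Cdk1, Plk1, Ttk, Ube2c, Kif11, Kif20a, Hmmr and Cenpf) were called only against 30 min. The comparisons share the IL-2 arrays, so their calls are not independent, and whether the differences of these 8 genes themselves differ between the comparisons was not tested.

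This is the comparison in which scan day could be held fixed. Among the arrays of the shared day, 3 in each group, 18 genes were lower and 17 of them were among the 20, with a median difference of −1.03, and scan day as a block likewise gave 18. The count was sensitive to single arrays and to scaling. It was 10 without IL-2 replicate 4, 14 without replicate 1 or replicate 2 of the 30 min group, 10 with centring on each array's median, 11 with a pseudocount of 64 and 3 with ribosomal protein centring. With all 12 arrays it was 2. With ribosomal protein centring the set's median remained below 0, at −0.54, where that of all genes was 0.37. The share of higher genes among all calls was 73.3% with median centring and 90.5% with ribosomal protein centring, against 60.9% with the authors' scaling.

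**Figure D4:**
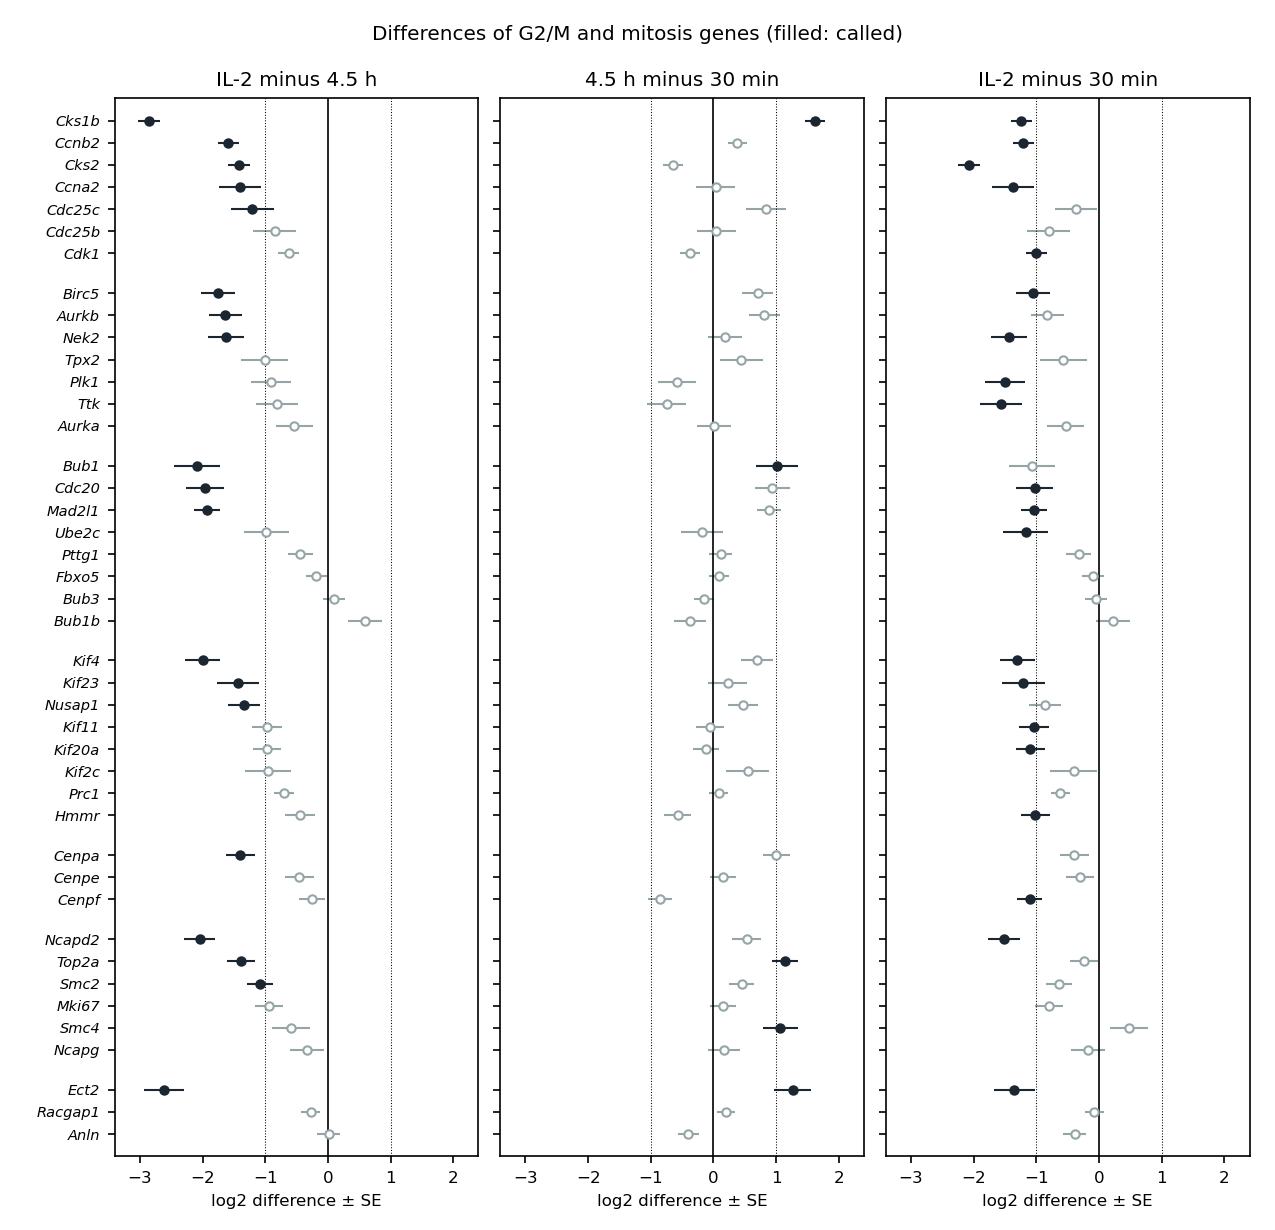
Log2 difference with its SE for 42 genes (rows, grouped by role), for IL-2 minus 4.5 h, 4.5 h minus 30 min and IL-2 minus 30 min; filled points were called and dotted lines mark 2-fold. All filled points lie left of 0 in the outer panels and right of 0 in the middle panel, which holds 5 of them.

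Across the 3 comparisons 10 genes were lower with IL-2 against both other groups with no call between those groups: Ccna2, Ccnb2, Cks2, Nek2, Birc5, Mad2l1, Cdc20, Kif23, Kif4 and Ncapd2. Of these, Cdc20 and Kif23 lost the call against 30 min in 13 and 10 of 26 alternative settings. Cks1b and Ect2 were lower with IL-2 against both and higher at 4.5 h than at 30 min. Bub1 and Top2a were higher at 4.5 h than in both others, with no call between IL-2 and 30 min, Top2a by 1 of its 2 tested probe sets and Bub1 with a call of 4.5 h against 30 min that most alternatives did not keep. Cdc25c, Aurkb, Nusap1, Cenpa and Smc2 were called only between IL-2 and 4.5 h, and 14 genes were called in no comparison.

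In 2 groups the same array was the lowest for most of these genes. Replicate 2 of the 4.5 h group was the lowest of its group for 36 of 42 genes (85.7%, against 33.7% of all genes), with a median of 0.46 log2 units below the group mean. It also had the highest Actb 3′ to 5′ difference of the 11 arrays, 0.80. IL-2 replicate 4 was the lowest of its group for 29 of 42 genes (69.0%, against 40.9% of all genes). Without replicate 2 of the 4.5 h group, 26 genes were lower with IL-2 at matched time and all 19 of the calls made with it were among them.

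**Figure D5:**
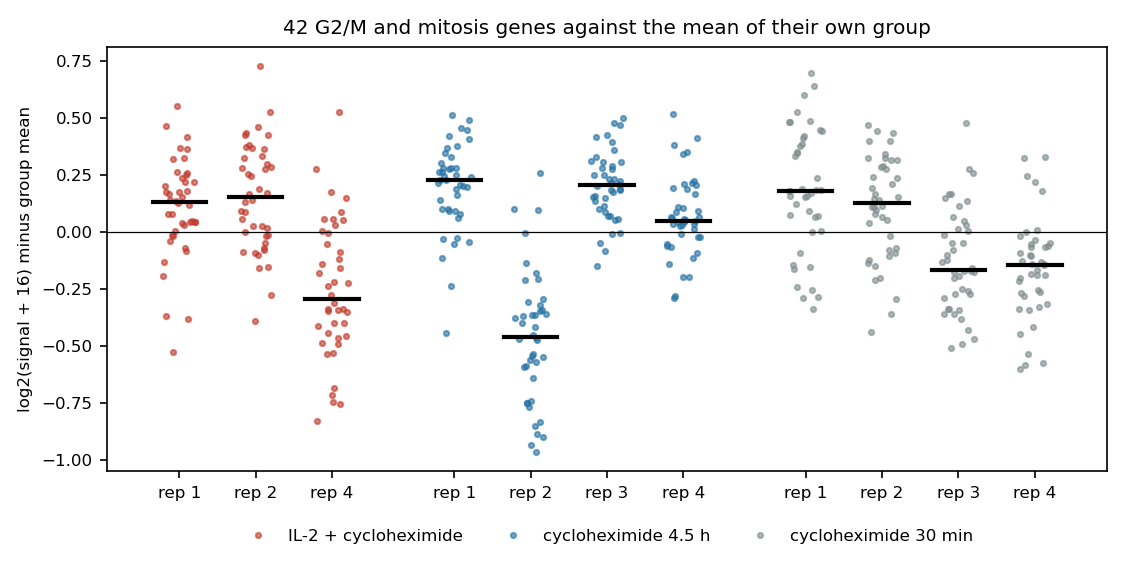
Deviation of 42 genes (points) from the mean of their own group on each of 11 arrays, in log2(signal + 16) units, with the median as a black bar. The medians run from −0.46 on replicate 2 of the 4.5 h group to 0.23 on replicate 1 of the same group.

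Each gene's values above are those of its brightest probe set, and 24 of the 42 genes had more than 1 tested. Of all 83 tested probe sets of the set, 27 were called lower and 0 higher with IL-2 than at 4.5 h, against 5.51% lower and 6.63% higher of all probe sets. Between 4.5 h and 30 min 0 were lower and 6 higher, against 6.76% and 6.48%, and between IL-2 and 30 min 28 were lower and 0 higher, against 4.26% and 6.32%. Their probe sets gave the same sign for 21 of 24 genes for IL-2 against 4.5 h, 15 of 24 for 4.5 h against 30 min and 18 of 24 for IL-2 against 30 min, and no gene had probe sets called in opposite directions. Of the called genes with several probe sets, all were called for 5 of 11, 0 of 3 and 4 of 10. Averaging took in all probe sets of a gene, also those below the brightness limit. With it, Nusap1, Nek2, Smc2, Cenpa and Top2a lost the call of IL-2 against 4.5 h. Nusap1 and Cenpa are not among the 24 genes with more than 1 tested probe set.

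Other genes of the same machinery gave counts of their own, to be read against the shares of all genes given above for each comparison. Of 24 further genes of the kinetochore and the passenger complex, 17 were lower with IL-2 than at 4.5 h, with a median of −1.42, 6 were higher at 4.5 h than at 30 min and 5 were lower with IL-2 than at 30 min. Cenpn, a centromere protein, averaged 168 ± 63.8 with IL-2, 672 ± 142 at 4.5 h and 247 ± 29.4 at 30 min (SD, n = 3, 4 and 4). Cdca8, the passenger subunit borealin, averaged 373 ± 38.3 with IL-2, 1209 ± 188 at 4.5 h and 621 ± 119 at 30 min. Of 27 further genes of the spindle and cytokinesis, 11 were lower with IL-2 than at 4.5 h and 9 were lower than at 30 min. Cep55, a midbody protein, averaged 205 ± 39.1 with IL-2, 672 ± 112 at 4.5 h and 421 ± 92.2 at 30 min. Aspm, a spindle pole protein, averaged 149 ± 47.3 with IL-2, 260 ± 54.5 at 4.5 h and 467 ± 82.5 at 30 min.

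Of 14 condensin and cohesin genes, 4 were lower and 1 was higher with IL-2 than at 4.5 h, against 5.94% and 5.04% of all genes, so the single higher gene is near the background share. Espl1, the protease separase, averaged 46.9 ± 12.1 with IL-2, 182 ± 52.6 at 4.5 h and 233 ± 29.1 at 30 min. Pds5a, a cohesin regulator, was the gene that was higher. It averaged 1411 ± 93.9 with IL-2, 396 ± 55.6 at 4.5 h and 1332 ± 336 at 30 min. The difference was 1.80 ± 0.21 for IL-2 against 4.5 h (adjusted p = 2.44e-04). For 4.5 h against 30 min it was −1.68 ± 0.19 (adjusted p = 1.86e-04), called lower. Between IL-2 and 30 min Pds5a was not called. Of 16 APC/C subunits and partners 1 was called in each comparison, in each case lower and near the background share, and the median was 0.02 for IL-2 against 4.5 h. Of 23 regulators and transcription factors 5 were lower with IL-2 than at 4.5 h. Between 4.5 h and 30 min 2 were lower and 2 higher, against 4.75% and 7.22% of all genes. Between IL-2 and 30 min 3 were lower and 1 higher, against 4.46% and 6.94%. Mybl2, which encodes B-Myb, averaged 75.8 ± 12.1 with IL-2, 266 ± 39.2 at 4.5 h and 104 ± 14.0 at 30 min. Ccnf, cyclin F, averaged 18.4 ± 7.19 with IL-2, 32.2 ± 25.4 at 4.5 h and 248 ± 115 at 30 min. Its IL-2 and 4.5 h means lay below the brightness limit of 33.6, so it was tested only through its 30 min arrays. E2f8, a transcriptional repressor of the E2F family, averaged 842 ± 109, 741 ± 134 and 141 ± 72.1 in the same order. Against 30 min, Ccnf was called lower and E2f8 higher both with IL-2 and at 4.5 h. Neither was called between IL-2 and 4.5 h.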

How the data were processed

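RNA labelled as from CTLL-2 cells was measured on 12 arrays. In the table deposited by the authors each probe set has a linear intensity for every array, and the submitters' processing notes name GCOS 1.3. Each deposited array had a mean of 500 after trimming 2% at each end. How background was corrected and probes were summarised is not given in the sources used here. Information files from the scanner, deposited by the authors, served only to number scan days.

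Signals were used as log2(signal + 16), which understates differences of dim genes. Probe sets at or above the 40th percentile of mean level (signal 33.6) were tested, 27022 in all. A model with 3 groups was fitted to 11 arrays with limma 3.58.1 in R 4.3.3 and corrected by Benjamini-Hochberg across those probe sets. Nothing in the labels states that replicates came from separate cultures, so the p-values rest on array-to-array spread that may be technical, and the number of arrays limits the precision. The fit was tested on simulated data. Figures were drawn with matplotlib 3.10.9.

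The members, lists and tests were chosen with earlier results of these data known. All members, and up to 4 genes by p-value of each further list and comparison, could be named; promoters were those of the largest called differences. Alternatives covered scaling, pseudocount, filter, spread, samples, pairing, probe set choice, fold limit, scan day and leaving out each array.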

Additional observations from a re-analysis of the deposited data

Results flagged for a closer look

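In the 4.5 h group, replicate 2 stood far below the other 3 arrays for 4 genes. It read 227 for Bub1b, where the others read 493.5 to 562.5, and 1057 for Cdc20, where they read 2291 to 2593. It read 1913 for Cenpa, where they read 3078 to 3371, and 238 for Ect2, where they read 480.0 to 507. These were 4 of 84 groups of 4 arrays examined, and chance sets apart about 1 group in 20. The array left out of the comparisons, labelled IL-2 replicate 3, carried a signal for the set: its median over 42 genes was 10.06 on the log2 scale, against 7.82 to 9.23 on the other 11 arrays, and it lay above all of them for 23 genes and below all for 6. On that array 6 muscle markers read 4087 to 40277, against at most 262 on the others.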

How the results depend on the processing

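No member's call changed direction under any alternative run: of 3201 values of single genes, 2976 kept their side of the threshold, 169 lost a call and 56 gained one. In IL-2 against 4.5 h, 19 members were lower and 0 higher. Ribosomal protein centring gave 8 and 1, and all 12 arrays gave 11 lower; leaving out 1 array gave 18 to 26 lower. Mad2l1, Bub1 and Kif4 kept the call under 24 alternatives, and Ect2 and Birc5 under 23. Both of the latter have no tested probe set left when those that can match more than 1 transcript are dropped. That class was set by names ending in _a_at, _s_at or _x_at, without telling transcripts of 1 gene from those of several. In 4.5 h against 30 min, 5 were higher and 0 lower. Ribosomal protein centring gave 1 of each, and all 12 arrays gave 1 higher. Dropping probe sets that can match more than 1 transcript gave 2 higher, as did the mean over probe sets. Without the fold limit 9 were higher and 2 lower, against 20% and 13.7% of all genes. Leaving out 1 array gave 3 to 10 higher. In IL-2 against 30 min, 20 were lower. Median centring gave 10, ribosomal protein centring 3, a pseudocount of 64 gave 11, and all 12 arrays 2; leaving out 1 array gave 10 to 21. The causes were not tested. Deviations from group means correlated by −0.02 to 0.22 between same-numbered arrays, and by 0.13, 0.09 and 0.22 between those of IL-2 and 30 min. Differently numbered arrays were not compared, so whether replicate numbers pair the samples was not settled. The replicate block gave 20 lower, 4 higher and 17 lower in the 3 comparisons. Dim genes limit the set: 15 of 98 probe sets were below the filter.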
